A study of Homo sapiens with 4 samples.

Results

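The 10 genes described here encode chaperones and folding enzymes of the endoplasmic reticulum, and they were followed in H9 cells, an established line of human embryonic stem cells in the primed state. They are HSPA5, HSP90B1, CALR, CANX, PDIA3, PDIA4, PDIA6, P4HB, SDF2L1 and DNAJB9. They were taken by name from a table of 16174 genes. All 10 were listed there and all 10 reached a mean of 1 TPM, the level required for testing. TPM is a length-scaled relative abundance whose sum is fixed within each library.

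Both arms of the study carried the same doxycycline-inducible dCas9-KRAB cassette, PB-TetO-AIO-dCas9-BFP-KRAB, placed in the genome by the hyPBase transposase. dCas9-KRAB joins a Cas9 that cannot cut DNA to the KRAB repressor, and it silences the promoter to which its guides bring it (CRISPR interference). The SNHG26 arm carried pooled guides against the long non-coding RNA gene SNHG26, and the control arm carried non-targeting control guides. All cells had been selected with 500 ng/mL puromycin for 6 days and were given 1 µg/mL doxycycline for 2 days (day 2) or 3 days (day 3). Each arm had 1 library per day, so the n = 2 libraries of an arm also differ in the length of treatment. The labels do not say that the libraries came from separate cultures, so p-values measure only the spread between these libraries.

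Proteins that enter the endoplasmic reticulum fold with the help of these enzymes. HSPA5 (BiP) is the Hsp70 of this compartment, HSP90B1 (GRP94) is its Hsp90, calreticulin (CALR) and calnexin (CANX) bind the sugar chains of new glycoproteins, and the protein disulfide isomerases make and rearrange disulfide bonds. When unfolded proteins build up, the sensors IRE1, PERK and ATF6 start the unfolded protein response, and the transcription factors ATF6 and XBP1 then raise transcription of many of these genes. ATF6 acts with NF-Y at a promoter motif called the ER stress response element (ERSE).

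With the SNHG26 guides, the targeted gene had values of 0 (day 2) and 0.933 TPM (day 3), against 2.98 and 4.03 TPM for SNHG26 with the control guides. The arms did not overlap, and the exact two-sided permutation p was 0.333, the smallest that 2 libraries against 2 allow. The change of SNHG26 on log2(TPM + 1) was -1.69 (SE 0.58). Its limma adjusted p was 0.935 (unadjusted 0.042), so the targeted gene did not pass adjustment over all genes. Read numbers, recovered from the values as upper bounds, came to between 947338 and 1220265 per library. Of 14 markers of primed stem cells, 13 were listed and 11 could be tested. POU5F1 stood between 1050 and 1212 TPM, ZIC2 was listed at 0 in every library, and the summed markers ran from 1720 to 1863 TPM with the SNHG26 guides and from 1857 to 1970 TPM with the control guides. POU5F1 makes up most of these sums. Of the 11 markers tested, 1 was higher and 4 were lower with the SNHG26 guides on both days, beside 24.8% and 21.8% of all genes tested. Between the guides 1 of the 11, DPPA4, had an unadjusted limma p under 0.05, beside 4.07% of all genes. DPPA4, named after its values were seen, was at 210.2 and 182.5 TPM with the SNHG26 guides against 314.7 and 266.1 TPM, without overlap. Lower values without overlap were seen in 13.2% of all genes tested. Of the listed markers of other cell types, mesendoderm genes summed to at most 5.34 TPM and amnion or trophectoderm genes to at most 1.29 TPM in any library. Fibroblast markers, most of whose signal came from THY1, which primed stem cells also express, summed to between 65.1 and 96.5 TPM, the highest in the day 3 control library. The neuroectoderm list rested on NES, at 17.1 to 24.5 TPM. The part of these differences in the results below was not tested. In bulk RNA, fewer cells that express a gene and less RNA per cell cannot be told apart.

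The promoter sequences are shown first. Many of these genes are known targets of ATF6 and XBP1, as stated above, so finding an ERSE among them is not independent of their choice. RefSeq promoter windows (GRCh38.p14, from 250 bases before to 50 after a start) were available for 9 of the 10 genes, all but PDIA3. Both strands were searched for the ERSE, which is CCAAT followed after 9 bases of any kind by CCACG. An exact match was found in 5 of the 9 genes, HSPA5, HSP90B1, CALR, CANX and PDIA6, and in 0.0769% of 35116 windows of all genes. Genes were counted if any of their windows matched (14 windows for the 9 genes), whereas the share over all genes is per window. The window of SDF2L1 held the shorter ERSE-II, which is ATTGG followed after 1 base by CCACG, and which occurred in 0.0541% of all windows. The matches are printed 5′ to 3′ on the strand of the gene, with the fixed bases of the motif in capitals.
HSPA5: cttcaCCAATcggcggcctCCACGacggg
HSP90B1, distal: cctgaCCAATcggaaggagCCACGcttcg
HSP90B1, proximal: gggtgCGTGGtgcggcgcgATTGGtgggt
CALR: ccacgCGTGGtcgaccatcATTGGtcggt
CANX: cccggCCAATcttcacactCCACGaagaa
PDIA6: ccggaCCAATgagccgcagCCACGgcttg
SDF2L1, ERSE-II: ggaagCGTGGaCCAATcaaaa

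The printed stretch of HSPA5 lies at chr9:125241386-125241414 on the minus strand, and that of PDIA6 at chr2:10812848-10812876 on the minus strand, in the window of 1 of its 2 RefSeq starts. The stretches of HSP90B1 lie at chr12:103930211-103930239 and chr12:103930316-103930344, and those of CALR, CANX and SDF2L1 at chr19:12938379-12938407, chr5:179698773-179698801 and chr22:21642109-21642129, all on the plus strand. In CALR, in the proximal match of HSP90B1 and in SDF2L1, the motif reads on the strand opposite to the gene. With 1 mismatch allowed among the 10 fixed bases, the ERSE was found in 6 of the 9 genes, now with SDF2L1, and in 1.55% of all windows. That SDF2L1 match shares its CCAAT with the ERSE-II. HSP90B1 then had 4 matches in its window. The other motifs searched, TGACGTGG (the core of the unfolded protein response element) and TTGCATCA (the amino acid response element bound by ATF4), were in none of the 9 genes and in 0.729% and 0.866% of all windows. Among 87 other genes of the endoplasmic reticulum lists described below, 3 held an exact ERSE, namely CRELD2, ERO1B and XBP1. A match describes these letters only.

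**Figure D1:**
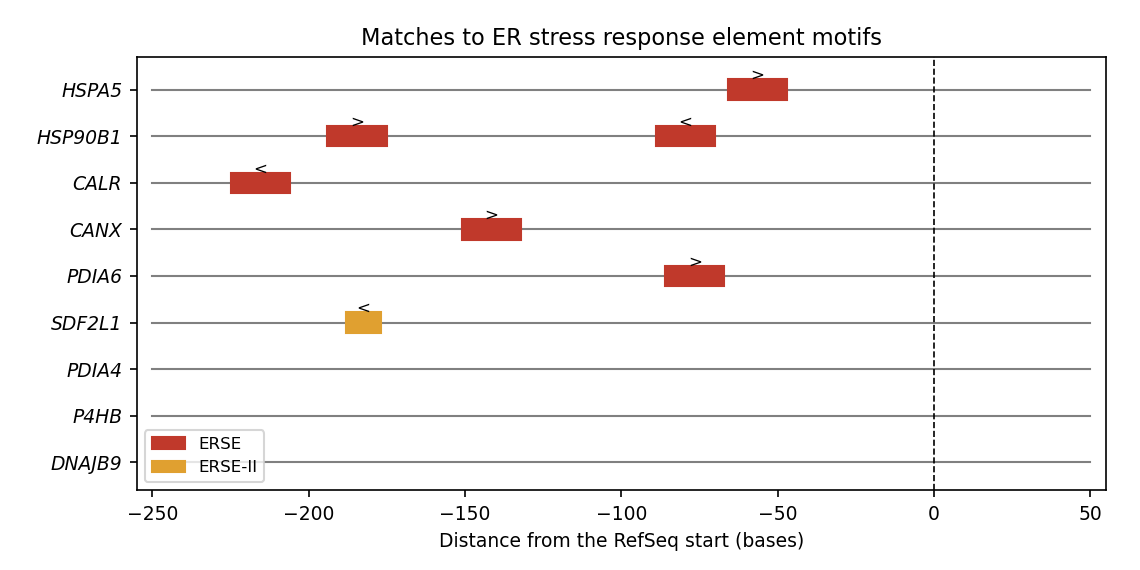
Exact matches to the ERSE (red) and ERSE-II (yellow) in RefSeq promoter windows of the 9 genes with a window, plotted by distance in bases from the start (dashed line); arrowheads give the strand of the motif relative to the gene. The matches of 6 genes lie between positions -225 and -48, and PDIA4, P4HB and DNAJB9 have none in these windows.

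The levels of the 10 genes spanned from 3.35 to 547.3 TPM. CALR had the highest TPM and CANX the lowest in each of the 4 libraries. By mean TPM the order was CALR (437.3), HSP90B1 (96.7), SDF2L1 (86.5), PDIA6 (35.0), P4HB (33.0), PDIA4 (32.1), PDIA3 (26.6), HSPA5 (20.9), DNAJB9 (14.1) and CANX (5.21). CALR stood clear of HSP90B1, SDF2L1 of PDIA6, and DNAJB9 of CANX. Every other pair of neighbours in that order overlapped across the 4 libraries. The deposited length is genomic span, introns included, but with it only SDF2L1 of these genes gave whole reads. The length behind the other values is not known, so the order is one of TPM and not of mRNA numbers. Taken as reads, the upper bounds were 270 to 495 for CALR, 287 to 352 for HSP90B1 and 249 to 299 for PDIA6, a gene with a span of 54587 bases. HSPA5 had at most 14.1 to 30.2 reads on its span of 6530 bases, and DNAJB9 at most 7.54 to 12.8. A read number of that size carries a counting error of at least 18.2% for HSPA5 and 27.9% for DNAJB9 in the library with the most reads. PCR reads without molecular identifiers are not independent molecules, so this error covers counting only.

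**Figure D2:**
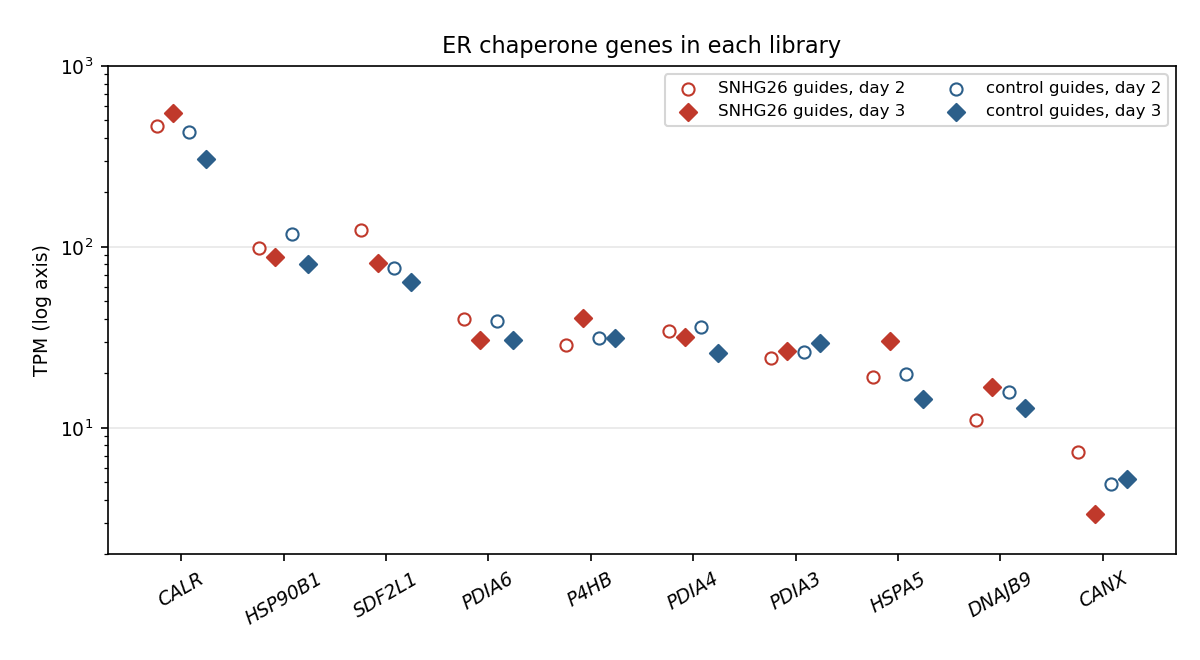
TPM (log axis) of the 10 genes in the 4 libraries, ordered by mean; open circles are day 2 and filled diamonds day 3, red the SNHG26 guides and blue the control guides. The 4 points of most genes lie close together against the range between genes, and HSPA5 and CALR show their widest gap between the arms on day 3.

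Gene positions are those of the deposited table (GRCh38 per the submitters' processing notes). HSPA5 (chromosome 9, 125234853 to 125241382, minus strand) binds unfolded chains in an ATP-driven cycle and keeps the stress sensors inactive. With the SNHG26 guides its level was 19.1 TPM on day 2 and 30.2 TPM on day 3, and with the control guides it was 19.8 TPM and 14.5 TPM. The day 2 libraries were nearly equal, while on day 3 the knockdown library was the highest of the 4 and the control library the lowest, so the arms overlapped. The ratio of SNHG26 to control guides was 0.964 on day 2 and 2.08 on day 3. With the upper bounds taken as reads, the 95% counting intervals (exact, conditional on the sum) were 0.459 to 2.03 and 1.07 to 4.24. They are wider where fewer reads were counted, so a difference beyond counting error is not shown on either day. The mean change on log2(TPM + 1) was 0.48 (SE 0.37), with a limma adjusted p of 0.935. It fell to 0.16 without the day 3 knockdown library and to 0.27 without the day 3 control library, and it was 0.80 without the day 2 knockdown library.

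HSP90B1 (chromosome 12, 103930107 to 103953931, plus strand) takes over late folding steps of secreted and membrane proteins. It stood at 98.9 and 88.4 TPM with the SNHG26 guides on day 2 and day 3 and at 118.5 and 80.8 TPM with the control guides. Both arms were lower on day 3 than on day 2, and the control values enclosed the knockdown values. The guide change was -0.26 on day 2 and 0.13 on day 3. The ratio of the arms was 0.834 on day 2 and 1.09 on day 3. With the upper bounds taken as reads, the 95% counting intervals were 0.715 to 0.973 and 0.931 to 1.29. The day 2 interval lies below 1, with the knockdown library lower, but it is wider where fewer reads were counted. A difference beyond counting error is therefore not shown. The listed gene overlaps UQCC6 on the opposite strand by 13169 bases. On the same strand it holds MIR3652, at 111.3 TPM in the day 2 knockdown library and at 0 in the others. MIR3652 spans 131 bases, so few reads give it a high TPM. No source used here says if strand entered the counting, so the assignment of reads in these overlaps is uncertain. The pseudogene HSP90B2P was listed at 3.06 TPM in 1 library and at 0 in the others.

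SDF2L1 (chromosome 22, 21642302 to 21644299, plus strand) works with the J-protein partners of HSPA5 to hold folding chains in solution. It was listed at 124.1 and 81.7 TPM with the SNHG26 guides and at 76.4 and 63.9 TPM with the control guides. Both knockdown libraries were above both control libraries. Its values came out as whole reads, the only case among the 10 genes, with 34 and 25 reads against 19 and 19. The ratio of the arms was 1.62 on day 2 (95% counting interval 0.900 to 3.01) and 1.28 on day 3 (0.677 to 2.46), so counting error alone spans equality on each day. The mean change was 0.52 (SE 0.30) with a limma adjusted p of 0.935. It was 0.22 without the day 2 knockdown library and 0.82 without the day 3 knockdown library.

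DNAJB9 (chromosome 7, 108569867 to 108574850, plus strand) is a J-protein that stimulates the ATPase of HSPA5 and helps it to repress IRE1. It was listed at 11.03 and 16.8 TPM with the SNHG26 guides and at 15.8 and 12.9 TPM with the control guides. The knockdown arm held both the lowest and the highest value, and the guide change was -0.48 on day 2 and 0.36 on day 3.

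Of the lectin chaperones, CALR (chromosome 19, 12938578 to 12944489, plus strand) is the soluble one and also buffers calcium. It was listed at 464.4 and 547.3 TPM with the SNHG26 guides on day 2 and day 3 and at 431.2 and 306.2 TPM with the control guides. The arms did not overlap, and the day 3 control library was the lowest of the 4. The ratio of the arms was 1.08 on day 2 and 1.79 on day 3. On the upper bounds of the reads, the 95% counting intervals were 0.925 to 1.25 and 1.54 to 2.08. Each interval compares the 2 libraries of a day and not the conditions, and it is wider where fewer reads were counted. The mean change was 0.47 (SE 0.23; 95% limma interval -0.17 to 1.11), with a limma adjusted p of 0.935 (unadjusted 0.110), the smallest unadjusted p of the 10 genes. Without the day 3 control library the change was 0.23 by limma, and without the day 2 control library it was 0.72.

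CANX (chromosome 5, 179678628 to 179731641, plus strand) is the membrane-bound lectin chaperone. It was listed at 7.34 and 3.35 TPM with the SNHG26 guides and at 4.90 and 5.25 TPM with the control guides. Both extremes were knockdown libraries, and the guide change was 0.50 on day 2 and -0.52 on day 3. The CANX and CALR changes on day 3 were thus of opposite sign. CANX holds the pseudogene HMGB3P22 on the same strand, at 14.0 TPM in the day 2 control library and at 0 in the others.

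Among the disulfide isomerases, P4HB (chromosome 17, 81843159 to 81860856, minus strand), which is also the beta subunit of collagen prolyl 4-hydroxylase, was listed at 28.5 and 40.6 TPM with the SNHG26 guides and at 31.5 and 31.3 TPM with the control guides. The control libraries were nearly equal and the knockdown libraries lay on either side of them. PDIA4 (chromosome 7, 149003062 to 149028662, minus strand) stood at 34.5 and 32.0 TPM against 36.1 and 26.0 TPM, so the control arm held both extremes. PDIA6 (chromosome 2, 10783391 to 10837977, minus strand), a regulator of IRE1 and PERK signalling, stood at 40.0 and 30.6 TPM against 39.0 and 30.6 TPM. Its arms matched closely on each day, and both day 3 libraries were below both day 2 libraries. PDIA3 (chromosome 15, 43746394 to 43773279, plus strand), the partner of the lectin chaperones, stood at 24.4 and 26.6 TPM against 26.2 and 29.4 TPM. It was the only one of the 10 genes with a lower value in the knockdown library on both days, with guide changes of -0.10 and -0.14. The transcribed pseudogene PDIA3P1 was listed at 8.90 to 42.6 TPM, so reads may be shared with it. PDIA3 also overlaps ELL3 and CATSPER2P1 on the opposite strand, by 675 and 711 bases.

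The comparison of the guide arms asked whether repressing SNHG26 changes these genes. By limma, 0 of the 10 passed an adjusted p of 0.05 and 0 had an unadjusted p under 0.05, beside 0% and 4.07% of the 8274 genes tested. The adjusted p-values by limma ran from 0.935 to 0.998. The arms did not overlap in 2 genes, CALR and SDF2L1, both higher with the SNHG26 guides, beside 16.1% of all genes tested and 18.6% of those with a mean of 5 TPM or more, and in 0 genes that were lower, beside 13.2%. The share of 2 in 10 is near that background. The 95% limma intervals still span large changes, from -0.52 to 1.48 for HSPA5, from -0.81 to 0.68 for HSP90B1 and from -0.68 to 0.90 for P4HB. The direction of the mean guide change turned when 1 library was left out in 6 of the 10 genes, while HSPA5, CALR, SDF2L1 and PDIA3 kept theirs. The signs of CANX and PDIA6 also turned under another scaling of the table.

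The guide change was also taken on each day, from 1 library per arm. On day 2 the guide change was above 0 in 4 of the 10 genes, beside 46.1% of all genes tested, with a median of -0.057 beside 0 for all genes. On day 3 it was above 0 in 7 of 10, beside 51.6%, with a median of 0.32 beside 0.034 for all genes. Among genes with a mean of 5 TPM or more, as all 10 have, 58.3% were above 0 on day 3 and the median was 0.12. A day 3 change over 0.5 was seen in 2 genes, HSPA5 and CALR, beside 23.1% of all genes. The guide change was higher on day 3 than on day 2 in 6 of 10 genes, beside 54.9%. Limma's test of that difference gave 0 of 10 genes past an adjusted p of 0.05, beside 0.0967% of all genes. It gave 0 with an unadjusted p under 0.05, beside 3.52%. With 1 library per arm and day, that fit keeps the arm and day differences in its error, so it cannot exclude a difference. The largest difference was that of HSPA5, 1.06 (SE 0.69; limma adjusted p 0.961), followed by CANX at -1.02 (SE 0.76) and DNAJB9 at 0.84 (SE 0.55).

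**Figure D3:**
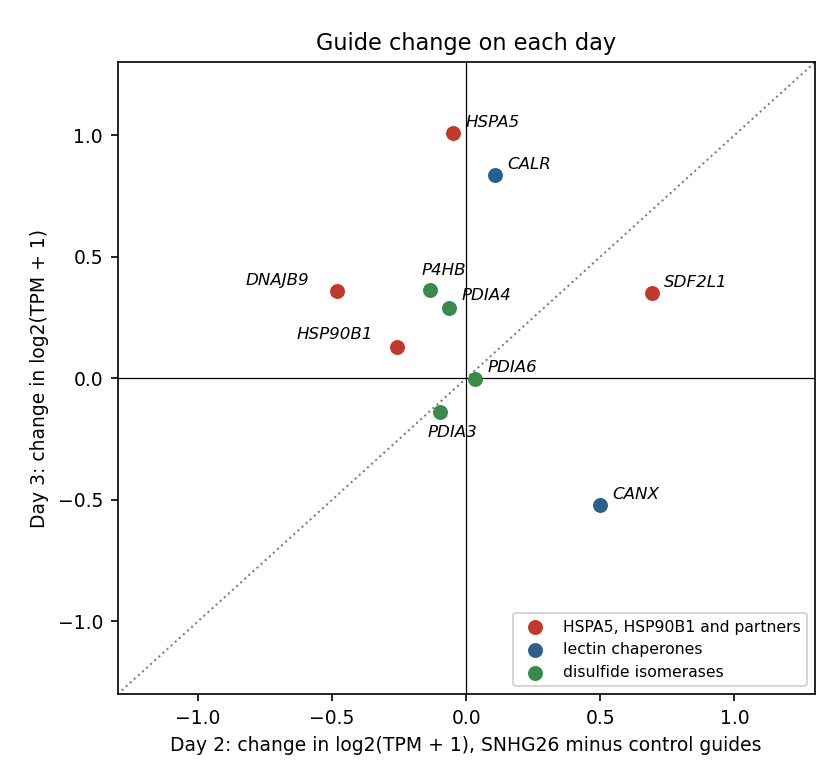
Guide change of each gene on log2(TPM + 1), SNHG26 minus control guides, on day 2 (horizontal) and day 3 (vertical), each point from 1 library pair; colours give the role and the dotted line marks equal changes. HSPA5 (1.01) and CALR (0.84) have the highest day 3 changes, and SDF2L1 lies to the right with 0.69 on day 2.

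The summed TPM of the 10 genes was 852.2 and 897.6 with the SNHG26 guides on day 2 and day 3 and 799.4 and 600.7 with the control guides. The day 3 control library was the lowest of the 4. CALR made up 51.0% to 61.0% of these sums. The ratio of the arms was 1.07 on day 2 and 1.49 on day 3, and without CALR it was 1.05 and 1.19. Counted as upper bounds of reads, the 10 genes stood at 1333 and 1240 RPM (reads scaled to the library total) with the SNHG26 guides and 1355 and 1046 with the control guides.

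Between the days, 8 of the 10 genes were lower on day 3 than on day 2 in the control arm, beside 50.9% of all genes tested and 53.9% of those with a mean of 5 TPM or more, with a median change of -0.31 beside -0.016. In the SNHG26 arm 5 of 10 were lower, beside 45.4%, with a median of 0.0072. The control value of CALR went from 431.2 to 306.2 TPM, a ratio of 0.710, and those of HSP90B1, HSPA5 and PDIA4 had ratios of 0.681, 0.732 and 0.719. Of the knockdown ratios, HSPA5 had 1.58, DNAJB9 1.52, P4HB 1.42 and CALR 1.18, while CANX had 0.456 and SDF2L1 0.659. Limma's comparison of day 3 with day 2 over both arms gave 0 of 10 genes past an adjusted p of 0.05, beside 0.0363% of all genes, and 0 with an unadjusted p under 0.05, beside 6.61%. The smallest adjusted p was 0.760 by limma. The days did not overlap in 1 gene that was higher on day 3, PDIA3, beside 17.1%, and in 3 that were lower, HSP90B1, PDIA4 and PDIA6, beside 18.4%.

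Other genes of the same compartment were described by lists. None of their genes passed an adjusted p of 0.05 by limma in any of the 3 comparisons. At an unadjusted limma p under 0.05 there were 2 genes between the guides (HYOU1 and OST4), beside 4.07% of all genes tested. In the guide-by-day difference there were 0, beside 3.52%. The list for the unfolded protein response holds sensors, transcription factors and related genes, and 10 of its 15 genes were tested. Their guide changes had medians of -0.30 (day 2) and -0.11 (day 3), and 1 gene was higher and 5 lower on both days. The sensors IRE1, PERK and ATF6 named above were not among these 10 genes, so the medians do not describe them. EIF2AK3 (PERK) and ERN1 (IRE1) were listed at 0 in every library. ATF6 had a mean of 0.193 TPM, below the 1 TPM required for testing. Other folding factors (21 of 30 tested) had medians of 0.093 and 0.30, with 10 higher and 3 lower on both days. The rule for named genes took CNPY3, a chaperone partner of HSP90B1, at 24.5 and 33.9 TPM with the SNHG26 guides against 22.9 and 19.2 TPM. It also took ERP29, at 35.7 and 39.5 against 40.1 and 47.6 TPM.

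Genes of ER-associated degradation (14 of 20 tested), which remove misfolded proteins, had medians of 0.35 on day 2 and 0.25 on day 3, with 6 higher and 0 lower on both days. Genes of translocation into the compartment (21 of 22 tested) had medians of 0.10 and 0.097, with 8 higher and 1 lower on both days. The oligosaccharyltransferase, which adds sugar chains (9 of 12 tested), had medians of 0.037 and 0.32, with 5 higher and 0 lower on both days. For comparison, 24.8% of all genes tested were higher and 21.8% lower on both days. Named by the rule were SSR3, a subunit of the translocon-associated complex, at 71.8 and 71.4 TPM against 61.6 and 44.1 TPM, and DAD1 of the oligosaccharyltransferase, at 37.6 and 43.8 against 29.7 and 30.4 TPM. SRPRA, the receptor of the signal recognition particle, stood at 52.7 and 42.6 against 62.2 and 49.4 TPM. The KDEL receptors return escaped chaperones to the compartment. KDELR1 was listed at 115.3 and 168.4 TPM with the SNHG26 guides and at 134.2 and 141.4 TPM with the control guides, KDELR2 at 10.2 and 8.14 against 11.9 and 10.4 TPM, and KDELR3 at 1.42 and 2.61 against 0.523 and 1.43 TPM.

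**Figure D4:**
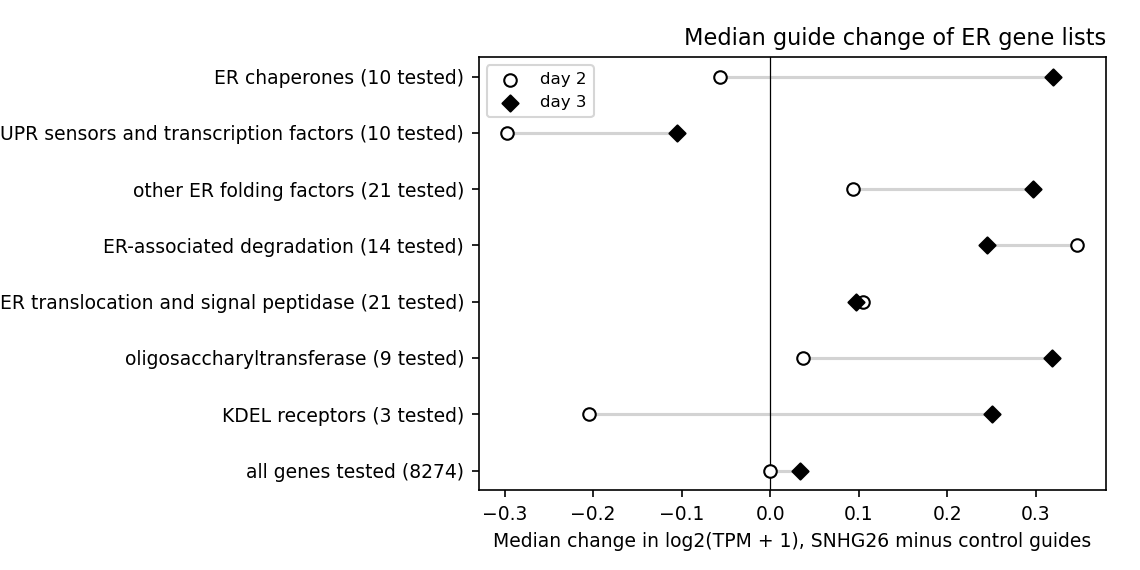
Median guide change on log2(TPM + 1) of each list on day 2 (open circles) and day 3 (diamonds), with the number of genes tested and, in the last line, all 8274 genes tested. The medians lie between -0.30 and 0.35, and that of the 10 chaperone genes moves from -0.057 to 0.32.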

How the data were processed

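Poly(A) RNA of the 4 libraries was read as cDNA on a nanopore sequencer after 14 cycles of PCR, per the labels' protocols. Gene-level TPM, 1 column per library, is what the authors deposited, per the file headers. The submitters' processing notes name minimap2 2.24-r1122 and GRCh38. The counting tool, the annotation release and any filter are not given in the sources used here. The Length column (genomic span) is deposited with the table and equals end minus start plus 1 for all 16174 genes.

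Mitochondrial mRNAs gave whole multiples of a TPM unit inversely proportional to span, from 0.653 to 0.803 TPM for 1 read on 10 kb. With it, values of 20.6% of 13840 detected genes were whole reads within 0.0001 read. For the others the full span gives an upper bound on the reads. Because these steps depend on the gene, no count test was run over all genes. The counting intervals compare 2 libraries each, with the upper bounds taken as reads for all members but SDF2L1.

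Fold changes are on the log2(TPM + 1) scale computed here, so those of low genes are understated. The 8274 genes with a mean of 1 TPM or more entered limma 3.58.1 (R 4.3.3; eBayes, trend on), two-sided, with Benjamini-Hochberg adjustment over all of them and a threshold of 0.05. The 3 comparisons were the guide arms, the days, and the guide change on day 3 against day 2 as the crossed contrast. Each was fitted without the other factor, so for the crossed contrast the arm and day differences stay in the error. On counts simulated at the upper-bound library sizes, with a fixed spread between libraries, few of the smaller changes passed. Changes were placed only in genes with more reads on average than HSPA5, SDF2L1, DNAJB9 and CANX, so those genes are not covered. The unchanged genes that passed all had very few reads. With 2 libraries per arm, a gene that does not pass is not shown to be unchanged. Counting intervals are exact (Clopper-Pearson, 95%). The members, gene lists and comparisons were chosen with earlier results of these data known. The text names the members, SNHG26, all genes of a list of 3 or fewer, and from other lists the gene with the largest change each way among those with a mean of at least 20 TPM that moved alike on both days. Alternatives were other pseudocounts, filters and scalings, eBayes without a trend, a replicate block, and leaving out each library. Motifs were searched by exact letters in RefSeq windows. Sample columns all matched a title. Genes of the lists at an unadjusted p under 0.05 between the days are not reported here.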

Additional observations from a re-analysis of the deposited data

How the results depend on the processing

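In the guide, day and guide-by-day comparisons, 0 of the 10 genes passed by limma in the main setting and under each alternative run, the replicate block included (0 genes with it in each comparison, and 0 at an unadjusted p under 0.05). The members' lowest limma adjusted p over all settings was 0.654 for the guides, 0.397 for the days and 0.888 for the guide-by-day difference. By the labels, libraries of the same day in the 2 arms share the length of doxycycline treatment, and a shared culture or batch is not stated. Across 8274 genes, their deviations correlated at 0.0464, so the numbers were not taken as pairing. The guide-by-day difference needs all 4 libraries and was not run with one left out. At a mean of at least 50 TPM, only CALR, HSP90B1 and SDF2L1 could be tested.

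The guide change of CANX, -0.01, turned to 0.0111 with a pseudocount of 5 and 0.00408 with quantile normalization. That of PDIA6, 0.02, turned to -0.0336 with quantile normalization and -0.0216 with median ratio scaling. Each is close to 0. Leaving out each library in turn gave guide changes from -0.48 to 0.46 for CANX (reversed without the day 3 knockdown or the day 3 control library), from -0.34 to 0.22 for DNAJB9 (without the day 2 knockdown or day 2 control library), from -0.34 to 0.21 for HSP90B1 (without the day 3 knockdown or day 2 control library), from -0.13 to 0.36 for P4HB (without the day 3 knockdown library), from -0.12 to 0.34 for PDIA4 (without the day 3 control library) and from -0.17 to 0.21 for PDIA6 (without the day 2 knockdown or day 3 control library). Those that kept their sign ran from 0.16 to 0.80 for HSPA5, from 0.23 to 0.72 for CALR, from 0.22 to 0.82 for SDF2L1 and from -0.20 to -0.037 for PDIA3. Day changes ran from -0.55 to 0.29 for CALR (reversed without the day 3 control library), from -0.0982 to 0.38 for DNAJB9 (without either knockdown library) and from -0.40 to 0.61 for HSPA5 (without the day 3 knockdown library). The lone library of an arm or day was assumed to vary like the others. The cause was not tested. The median guide change of the 10 genes, 0.0645, ran from -0.00319 to 0.198, and their ratio of mean summed TPM, 1.25, from 1.09 to 1.46 with one library left out. Depth limits DNAJB9 and HSPA5 most, which had at most 12.8 and 30.2 reads in any library.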

Other observations

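Some genes of the compartment outside the naming rule were chosen after their values were seen. HYOU1, a large Hsp70 relative that exchanges nucleotide on HSPA5, was listed at 21.2 and 19.0 TPM with the SNHG26 guides on day 2 and day 3 and at 10.3 and 11.9 TPM with the control guides, without overlap. Its mean change was 0.81 (limma unadjusted p 0.042). OST4 is a small subunit of the oligosaccharyltransferase and had the highest TPM of these lists. It stood at 2798 and 2523 TPM against 2200 and 2044 TPM, a change of 0.33 (limma unadjusted p 0.0375). They are the only genes of their lists with an unadjusted limma p under 0.05 between the guide arms, 1 of 21 and 1 of 9. The lists of the unfolded protein response, degradation, translocation and the KDEL receptors had 0 of 10, 0 of 14, 0 of 21 and 0 of 3. The 10 chaperone genes had 0 as well. The share of all genes tested was 4.07%, so these 2 genes do not set the compartment apart. Neither passed adjustment over all genes.

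XBP1, the transcription factor spliced by IRE1, went the other way, at 10.4 and 5.40 TPM with the SNHG26 guides against 21.1 and 11.8 TPM, a change of -0.98 (limma unadjusted p 0.112). Its arms did not overlap either. The table gives gene totals, so spliced and unspliced XBP1 were not separated here.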
